A study of Mus musculus with 4 samples.

Results

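Nr2f1 and Nr2f2 encode COUP-TFI and COUP-TFII, a pair of closely related transcription factors, and were taken as the rows with these symbols in the deposited gene list, 2 of 27998 genes. Their transcripts were followed in 4 single-cell RNA-seq libraries of mouse embryos, 1 per stage: E8.0, E8.25, E9.5, then E10.5. All 4 libraries came from Swiss Webster embryos of genotype Mesp1Cre;Rosa26-GFPflox/+, in which Cre expressed from Mesp1, a gene of early cardiac mesoderm, switches on GFP in its descendants, and GFP-positive, DAPI-negative cells were sorted from embryos pooled per stage. The 2 early libraries came from the upper part of the body and the 2 late ones from heart and pharyngeal apparatus, so age and dissected region cannot be told apart. All groups thus carry the same Cre and reporter alleles, and unlabelled cells were not analysed here.

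COUP-TFs are orphan members of the nuclear receptor family that bind DNA as dimers and act mostly as repressors, although they can also activate. In the mouse heart Nr2f2 is known for atrial identity and in blood vessels for venous identity. Both genes are known to respond to retinoic acid. Retinoic acid is made by Aldh1a2, carried by cellular binding proteins such as Crabp1 and Crabp2, broken down by Cyp26 enzymes and sensed by RAR and RXR receptors.

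In RefSeq on GRCm38.p6, Nr2f1 (ENSMUSG00000069171) lies on the minus strand of chromosome 13, from 78188971 to 78198873, and Nr2f2 (ENSMUSG00000030551) on the minus strand of chromosome 7, from 70351946 to 70366746. The 250 bases before each annotated gene start are shown because the paralogs were expressed in overlapping compartments, and they spell out how unlike these stretches are. They cover chr13:78198874-78199123 and chr7:70366747-70366996, both read on the minus strand, and capitals mark a GC box (GGGCGG or its complement) or a CCAAT box (either strand).
Nr2f1: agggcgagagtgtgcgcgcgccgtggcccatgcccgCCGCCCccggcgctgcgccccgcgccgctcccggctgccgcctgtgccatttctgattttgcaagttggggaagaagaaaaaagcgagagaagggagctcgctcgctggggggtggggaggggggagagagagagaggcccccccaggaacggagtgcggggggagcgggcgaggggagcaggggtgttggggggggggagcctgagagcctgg
Nr2f2: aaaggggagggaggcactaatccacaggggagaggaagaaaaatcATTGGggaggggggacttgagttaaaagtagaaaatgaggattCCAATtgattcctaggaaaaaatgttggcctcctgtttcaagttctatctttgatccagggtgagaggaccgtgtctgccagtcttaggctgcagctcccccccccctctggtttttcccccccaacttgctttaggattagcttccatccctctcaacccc
The Nr2f1 stretch had 72.0% GC and 22 CG dinucleotides, and its GC box began at position 37. The Nr2f2 stretch had 50% GC and 1 CG dinucleotide, and its CCAAT boxes began at positions 46 and 89. Over all 32851 RefSeq windows, which run from 250 bases before to 50 bases after a gene start, 35.7% held a GC box and 37.4% a CCAAT box. The nuclear receptor motif AGGTCA, which COUP-TFs bind, searched on both strands, was in neither gene's window and in 16.3% of all windows. RefSeq lists 2 start windows for Nr2f1 and 1 for Nr2f2, and the second Nr2f1 window is not shown. The noncoding gene A830082K12Rik (ENSMUSG00000087143) runs on the plus strand of chromosome 13 from 78198017 to 78236564 and so overlaps the 5′ end of Nr2f1. Whether the counting used strand is not given in the sources used here, so reads in this overlap cannot be assigned with certainty.

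After filtering, 2884 to 7525 cells per library remained, with a median of 15205 to 35216 unique molecular identifiers (UMIs, each standing for 1 captured transcript) per cell. Cells were assigned to compartments by counting marker genes with at least 1 UMI, without using Nr2f1 or Nr2f2. Apart from marker UMI shares used for cardiomyocytes and blood, these counts were not adjusted for depth. Cells with more UMIs can therefore pass more easily, and the effect on stage comparisons was not tested. The cardiomyocyte gate (such as Tnnt2 and Myl7) held 313, 32, 392 and 198 cells from E8.0 to E10.5, and all 8 of its markers stood above 20 UMIs per 1000000 (CPM) in every library. So did all 9 endothelial markers in their gate, 5 or 6 of the 6 pSHF markers and 7 to 9 of the 9 mesenchyme markers in theirs. The posterior second heart field gate (pSHF, including progenitors of the venous pole) held 706, 202, 488 and 293 cells. It was gated with markers such as Tbx5, Foxf1, Wnt2 and Osr1. In the paper that reported these data, pSHF cells with such markers include lung progenitors, and the gate may hold them too. The endothelial gate (such as Pecam1 and Cdh5) held 491, 180, 203 and 379 cells. The mesenchyme gate (such as Prrx1 and Pdgfra) held 570, 561, 538 and 2145 cells. Summed own markers stood at 504, 442, 1070 and 924 CPM in the pSHF gate from E8.0 to E10.5. In the mesenchyme gate they stood at 655, 609, 1159 and 1463 CPM. Both gates were thus less strongly marked early, and the effect on stage comparisons was not tested. Cells outside every gate made up 4696, 1100, 1475 and 2274 cells of these libraries, and cells passing several gates were left out. At E8.0 the ungated cells were 66.0% of cells and held 54.3% of the Nr2f1 and 66.6% of the Nr2f2 UMIs. In the later libraries they held 23.9% to 28.9% of the Nr2f1 and 28.0% to 37.0% of the Nr2f2 UMIs. Between 16 and 88 cell barcodes were shared by any pair of libraries, at most 1.39% of the smaller library.

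Nr2f1 was a low transcript at E8.0 and an abundant one from E9.5, whereas Nr2f2 was already well detected at E8.0. Summed over all retained cells, Nr2f1 stood at 7.73, 28.4, 90.1 and 94.4 CPM in stage order, with 95% exact Poisson intervals of 7.29 to 8.19, 27.4 to 29.4, 87.9 to 92.4 and 92.7 to 96.1. Nr2f2 stood at 54.7, 84.5, 157 and 91.2 CPM, with intervals of 53.5 to 55.9, 82.7 to 86.2, 154 to 160 and 89.5 to 92.9. The level at E10.5 was 12.2-fold that at E8.0 for Nr2f1 and 1.67-fold for Nr2f2, and the highest library was E10.5 for Nr2f1 and E9.5 for Nr2f2. These intervals, like all others below, cover counting error only, and with 1 library per stage no test between stages was possible. In such sums, fewer cells of a type and less RNA per cell cannot be told apart.

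Blood-gated cells differed in number between the libraries. The blood gate held 150, 314, 4 and 1026 cells, and at E10.5 it contributed 21.9% of all UMIs but only 0.9% of the Nr2f1 UMIs and 1.0% of the Nr2f2 UMIs. Without blood-gated cells, E10.5 stood at 120 CPM for Nr2f1 and 116 CPM for Nr2f2, against 90.3 and 157 CPM at E9.5. The order of E9.5 and E10.5 was therefore the same with and without blood for both genes, but the margin was not. Nr2f1 in blood-gated cells stood at 0.59, 1.67 and 3.75 CPM at E8.0, E8.25 and E10.5, and Nr2f2 at 1.57, 6.42 and 3.96 CPM, the lowest level of any gate with at least 100 cells in each of these libraries.

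Of these 4 compartments, Nr2f2 was highest in the pSHF gate at E8.0, E9.5 and E10.5, and Nr2f1 was lowest in the endothelial gate at E8.25, E9.5 and E10.5. Nr2f2 in the pSHF gate stood at 68.9, 113, 276 and 274 CPM from E8.0 to E10.5. The level was close to the same in the last pair of libraries, and their intervals (265 to 287 and 259 to 290 CPM) overlapped. In cardiomyocytes Nr2f2 stood at 11.4, 71.1, 125 and 140 CPM, the widest range of the 4 compartments as a ratio of highest to lowest. The E8.0 cardiomyocytes held 67 Nr2f2 UMIs in 313 cells, and their interval of 8.81 to 14.4 CPM lay below those of the other compartments of that library. In mesenchyme Nr2f2 stood at 52.3, 130, 131 and 99.9 CPM, and in endothelial cells at 44.1, 76.4, 73.3 and 86.4 CPM. Endothelial cells had the narrowest range for this gene.

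Nr2f1 followed another course. In mesenchyme it stood at 4.39, 29.3, 130 and 201 CPM, with intervals of 3.39 to 5.58 at E8.0 and 196 to 206 at E10.5. In the pSHF gate it stood at 20.8, 68.5, 108 and 89.7 CPM. Of the 4 compartments, pSHF was thus highest for Nr2f1 at E8.0 and E8.25, and mesenchyme at E9.5 and E10.5. Their intervals did not overlap. In cardiomyocytes, whose late sums mix the same groups, Nr2f1 stood at 1.70 (10 UMIs), 28.0, 77.2 and 52.6 CPM. In endothelial cells it stood at 3.92, 9.02, 5.29 and 11.3 CPM, above the blood level in each library that had at least 20 blood-gated cells. Mesenchyme-gated cells were 28.5% of the E10.5 cells and held 55.6% of its Nr2f1 UMIs and 28.6% of its Nr2f2 UMIs.

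**Figure D1:**
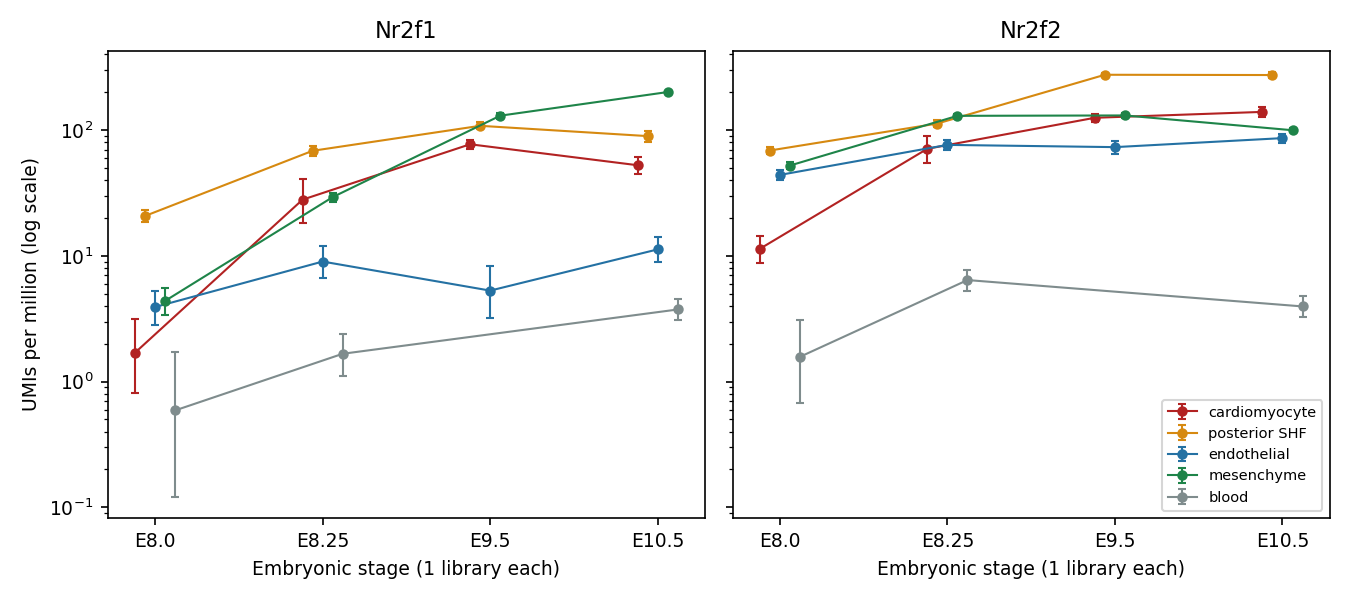
CPM of Nr2f1 (left) and Nr2f2 (right) on a log axis against stage, as sums over the cells of each gate with exact Poisson intervals, 1 library per stage; blood has no point at E9.5, where 4 cells passed its gate. Nr2f1 in mesenchyme runs from 4.39 to 201 CPM while in endothelial cells it stays between 3.92 and 11.3 CPM, and Nr2f2 in the pSHF gate ends highest at 274 CPM.

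Smaller gates extended this picture. In cells with branchiomeric muscle markers (such as Tcf21 and Lhx2), Nr2f1 stood at 7.39, 6.12, 56.7 and 80.9 CPM and Nr2f2 at 38.0, 73.1, 137 and 106 CPM. Of the 6 markers of that gate 3, 4, 5 and 6 stood above 20 CPM in stage order, so its name is less sure at the early stages. The E8.25 library also held 64 cells that passed a gate of neural crest markers (such as Sox10 and Foxd3), a cell type outside the mesoderm. These cells had 134 CPM of Nr2f1 (121 to 148), the highest level of any gate in that library, and 33.8 CPM of Nr2f2 (27.3 to 41.3). Their Nr2f1 UMIs are part of the E8.25 library total above and of none of the 4 compartments.

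The compartments were then compared across the 4 libraries, with the library as a block, by the edgeR quasi-likelihood test, Benjamini-Hochberg adjusted over 12266 genes. The libraries stood in for replicates although each was another stage, so the errors include stage differences within a compartment, and the embryos were pooled. Nr2f2 was higher in pSHF than in cardiomyocytes in 4 of 4 libraries, by 2.59, 0.66, 1.14 and 0.97 on the log2 scale, and by 1.10 ± 0.36 (SE) in the edgeR fit (adjusted p = 0.0242). In that comparison 44.5% of all genes passed the threshold. Nr2f2 was lower in endothelial cells than in pSHF in 4 of 4 libraries, by -1.08 ± 0.35 in the edgeR fit (adjusted p = 0.0247), where 43.4% of all genes passed. The other 4 comparisons of Nr2f2 did not pass, with log2 differences from -0.66 for mesenchyme minus pSHF to 0.44 for mesenchyme minus cardiomyocytes.

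For Nr2f1 the endothelial cells stood apart from the other 3 compartments. Against pSHF, endothelial Nr2f1 was lower in 4 of 4 libraries, by -2.39, -2.91, -4.32 and -2.99, and by -3.03 ± 0.63 in the edgeR fit (adjusted p = 0.00185). Against mesenchyme it was lower by -0.16, -1.69, -4.58 and -4.15, and by -2.75 ± 0.64 in the edgeR fit (adjusted p = 0.00435), where 38.5% of all genes passed. Against cardiomyocytes it was higher at E8.0, by 1.16, and lower in the other 3 libraries, with an edgeR estimate of -1.83 ± 0.68 (adjusted p = 0.0395, where 47.6% of all genes passed). The calls against pSHF and mesenchyme held in all 11 alternative fits (another tool, scaling, low-count filter, gates or doublet handling, no library block, and each library left out), although the value against mesenchyme ran from -3.50 without the block to -2.07 without E10.5. The call against cardiomyocytes held in 4 of 11 and was lost without the E8.25, E9.5 or E10.5 library, at adjusted p = 0.0863, 0.326 and 0.12 by edgeR.

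The Nr2f2 calls also depended on single libraries. The difference between pSHF and cardiomyocytes held in 9 of 11 alternative fits and was lost without E9.5 (adjusted p = 0.0675) or without the library block (0.225), both by edgeR. The difference between endothelial cells and pSHF held in 8 of 11 and was lost without E9.5 (0.155), without E10.5 (0.0994) or without the block (0.121), again as adjusted p by edgeR. Ordered by mean level over the 4 libraries, Nr2f2 ran from pSHF (183 ± 108 CPM, SD, n = 4) through mesenchyme (103 ± 36.9) and cardiomyocytes (86.9 ± 58.4) to endothelial cells (70.0 ± 18.2), and no neighbours in this order passed the test. Nr2f1 ran from mesenchyme (91.3 ± 91.2 CPM) through pSHF (71.8 ± 37.7) and cardiomyocytes (39.9 ± 32.4) to endothelial cells (7.37 ± 3.37), and of the neighbours only cardiomyocytes and endothelial cells passed. Mesenchyme minus pSHF was the comparison with the fewest calls, 1.62% of all genes, and neither gene was among them.

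**Figure D2:**
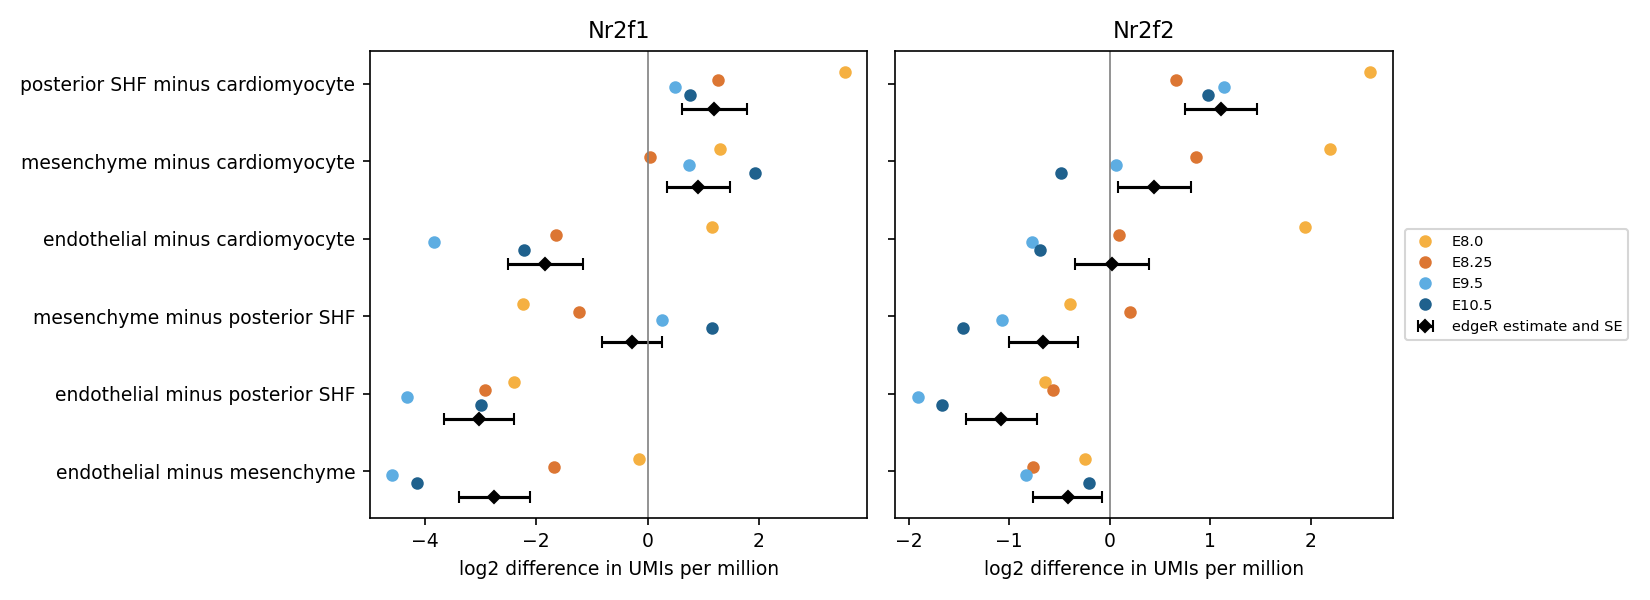
Log2 differences between compartments (rows) for Nr2f1 (left) and Nr2f2 (right); coloured points are the 4 libraries, from CPM with 0.5 UMI added, and black diamonds the edgeR estimates with their SE. For Nr2f1 the endothelial minus pSHF points all lie below -2, and for Nr2f2 the pSHF minus cardiomyocyte points all lie above 0.

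Whether a compartment difference itself differed between the early pair of libraries (upper body) and the late pair (pharyngeal apparatus and heart) was tested as an interaction over 13116 genes. In the late pair the cardiomyocyte sums mix atrial cells, high in Nr2f2, with ventricular and outflow cells, low in Nr2f2. They also hold cells assigned to none of these groups. Nr2f2 in mesenchyme was above that in cardiomyocytes by 2.19 and 0.86 (log2) at E8.0 and E8.25, and stood at 0.06 and -0.49 in the late pair. The late difference minus the early one was -1.87 ± 0.43 (edgeR, adjusted p = 0.0251, where 5.99% of all genes passed). The same held for endothelial cells against cardiomyocytes, with 1.95 and 0.09 early, -0.77 and -0.69 late, and an interaction of -1.87 ± 0.44 (edgeR, adjusted p = 0.0328, 4.63% of genes). Leaving out E8.0 also took the calls over all genes from 786 to 17 in the first of these interactions and from 607 to 18 in the second. Both share the cardiomyocyte sums, and both were lost without the E8.0 library, at -1.18 and -0.86 (edgeR, adjusted p = 0.159 and 0.361). Without E10.5 they stood at adjusted p = 0.129 and 0.0904, without E9.5 the second stood at 0.085, and without the library block at 0.57 and 0.594, all by edgeR.

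Nr2f1 changed sides between mesenchyme and pSHF. It was lower in mesenchyme by -2.23 and -1.22 at E8.0 and E8.25, and higher by 0.27 and 1.16 at E9.5 and E10.5, an interaction of 2.36 ± 0.50 (edgeR, adjusted p = 0.0372, 1.46% of genes). That call held in 4 of 11 alternative fits and was lost with DESeq2 (adjusted p = 0.222), without E8.0 (0.232, edgeR) and without E10.5 (0.107, edgeR). The endothelial deficit against mesenchyme was larger late than early, by -3.10 ± 0.65 (edgeR, adjusted p = 0.0227, 3.49% of genes), and held in 9 of 11 alternatives, being lost without E8.0 (0.204) and without the block (0.709). The interactions of pSHF with cardiomyocytes did not pass for either gene, at -0.74 ± 0.43 for Nr2f2 and -1.80 ± 0.66 for Nr2f1 (edgeR, adjusted p = 0.374 and 0.142, 4.82% of genes). Single libraries moved both values. Without E8.25 they stood at -1.63 for Nr2f2 and -3.11 for Nr2f1 (edgeR, adjusted p = 0.0288 and 0.0645), and without E8.0 at 0.30 and -0.80 (edgeR, adjusted p = 0.771 and 0.712). Those of endothelial cells with pSHF, where 4.97% of genes passed, stood at -1.13 ± 0.38 for Nr2f2 and -0.74 ± 0.65 for Nr2f1 and did not pass either (edgeR, adjusted p = 0.111 and 0.583).

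Both genes were counted at their 3′ ends, where capture may differ between transcripts. Levels of 1 gene set beside the other, here and above, therefore describe counted UMIs only. The genes were compared through changes of their ratio. In mesenchyme the log2 ratio of Nr2f2 to Nr2f1 UMIs stood at 3.57, 2.15, 0.01 and -1.01 from E8.0 to E10.5, so that Nr2f1 UMIs outnumbered Nr2f2 UMIs only at E10.5, with 6718 against 3337. In endothelial cells the ratio stood at 3.47, 3.07, 3.76 and 2.93 and in pSHF at 1.73, 0.72, 1.35 and 1.61, with no such course. In cardiomyocytes it stood at 2.68, 1.33, 0.70 and 1.41. The endothelial ratio was above the pSHF ratio in 4 of 4 libraries, by 1.96 ± 0.52 (SD, n = 4; exact sign-flip permutation test, two-sided, p = 0.125, adjusted p = 0.375 over 6 pairs). It was above the cardiomyocyte ratio in 4 of 4 libraries, by 1.78 ± 0.94 (same exact test, p = 0.125), and 0.125 is the smallest p that 4 libraries allow.

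**Figure D3:**
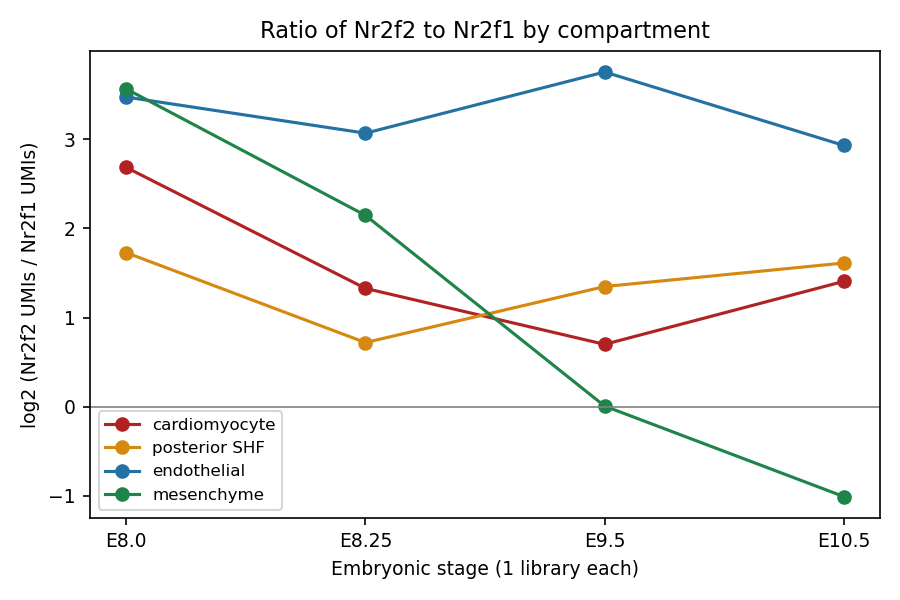
Log2 ratio of Nr2f2 to Nr2f1 UMIs (vertical axis) against stage, 1 line per compartment and 1 library per point; the grey line marks equal counts. The mesenchyme line goes from 3.57 to -1.01 while the endothelial line stays between 2.93 and 3.76.

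At E9.5 and E10.5, where chambers and vessel types can be told apart by markers, Nr2f2 was higher in atrial than in ventricular or outflow cardiomyocytes and higher in venous than in arterial endothelial cells. Neither COUP-TF entered a gate, but Nr2f2 is known for atrial and venous identity, the traits these markers define, and Nr2f1 is closely related. Markers and COUP-TF levels may therefore not be independent, which was not tested. Cardiomyocytes were split into an atrial and inflow group (markers such as Sln and Stard10, 79 and 51 cells), a ventricular group (such as Myl2 and Irx4, 121 and 33 cells) and an outflow group (such as Rspo3 and Sema3c, 33 and 31 cells). This split did not cover all of the 392 and 198 gated cells, and cells meeting no group's rule were in no group. Of the 822 Nr2f2 UMIs of the gate at E9.5, the atrial, ventricular and outflow groups held 377, 22 and 4. At E10.5 these groups held 218, 7 and 4 of 425. Nr2f2 stood at 305 (275 to 337) and 358 (312 to 409) CPM in atrial cells at E9.5 and E10.5. In ventricular cells it stood at 10.48 and 11.6 CPM, and in outflow cells at 8.06 and 9.37 CPM, from 4 UMIs in each outflow group. The atrial values thus lay far outside the intervals of the others in both libraries. The late groups were fitted together on 2 libraries of different stages, which stood in for replicates, so the errors include stage differences. Atrial minus ventricular was 4.70 ± 0.35 on the log2 scale by edgeR over 8504 genes (adjusted p = 5.86e-07, where 9.42% of genes passed), and atrial minus outflow was 5.30 ± 0.44 (edgeR, adjusted p = 4e-06, 2.96% of genes). Both calls held in every alternative fit that could be made, 7 of 7 and 6 of 6.

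Nr2f1 showed the atrial excess mainly at E9.5. At E9.5 atrial cells had 200 CPM (176 to 227, 248 UMIs), and at E10.5 they had 49.3 CPM (33.2 to 70.3, 30 UMIs). Ventricular cells had 7.62 and 18.2 CPM, and outflow cells 10.1 and 44.5 CPM. At E10.5 the intervals of atrial and outflow cells (26.8 to 69.5 CPM) overlapped. Atrial minus ventricular was 3.47 ± 0.65 by edgeR (adjusted p = 0.00306), with 4.68 from the E9.5 library and 1.40 from E10.5, and it held in 7 of 7 alternatives. Atrial minus outflow was 2.39 ± 0.67 and did not pass (edgeR, adjusted p = 0.0768), with 4.18 from the E9.5 library and 0.13 from E10.5. The summed atrial markers were alike in the atrial group of both libraries, at 998 and 986 CPM, and the summed cardiomyocyte markers were 16756 and 33109 CPM. The part of that marker difference in the lower Nr2f1 level at E10.5 was not tested.

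Endothelial cells were split into venous (such as Aplnr and Ephb4, 50 and 78 cells), arterial (such as Gja4 and Sox17, 21 and 29 cells) and endocardial groups (such as Nfatc1 and Npr3, 52 and 78 cells). Here too, part of the 203 and 379 gated cells was in no group. The venous, arterial and endocardial groups held 110, 14 and 27 of 263 Nr2f2 UMIs at E9.5. At E10.5 these groups held 171, 12 and 119 of 606. Nr2f2 stood at 127 (104 to 153) and 118 (101 to 137) CPM in venous cells. In arterial cells it stood at 45.4 (24.8 to 76.2) and 29.3 (15.2 to 51.2) CPM, below and apart from the venous values in both libraries. Venous minus arterial was 1.81 ± 0.39 by edgeR (adjusted p = 0.0311, where 1.23% of genes passed), which held in 6 of 7 alternatives, stood at 3.04 under stricter gates, and was lost without the library block (adjusted p = 0.205). Endocardial cells differed between the libraries, with 28.6 CPM (18.9 to 41.7) in E9.5 cells but 85.4 CPM (70.8 to 102) a stage later. Venous minus endocardial was 1.13 ± 0.29 by edgeR (adjusted p = 0.0208, 8.90% of genes), but the E9.5 library gave 2.13 and E10.5 gave 0.47, and it held in only 4 of 7 alternatives, with DESeq2 at adjusted p = 0.118. Arterial minus endocardial did not pass (-0.68 ± 0.42, edgeR, adjusted p = 0.541, 2.99% of genes).

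Nr2f1 was near the floor in all 3 endothelial groups. It stood at 6.92 and 10.4 CPM in venous cells and at 2.12 and 10.8 CPM in endocardial cells. In arterial cells no Nr2f1 UMI was counted at E9.5, where 3 counts would be 9.74 CPM, and 5 UMIs gave 12.2 CPM at E10.5. None of the 3 endothelial differences of Nr2f1 passed, with 0 to 15 UMIs per group.

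**Figure D4:**
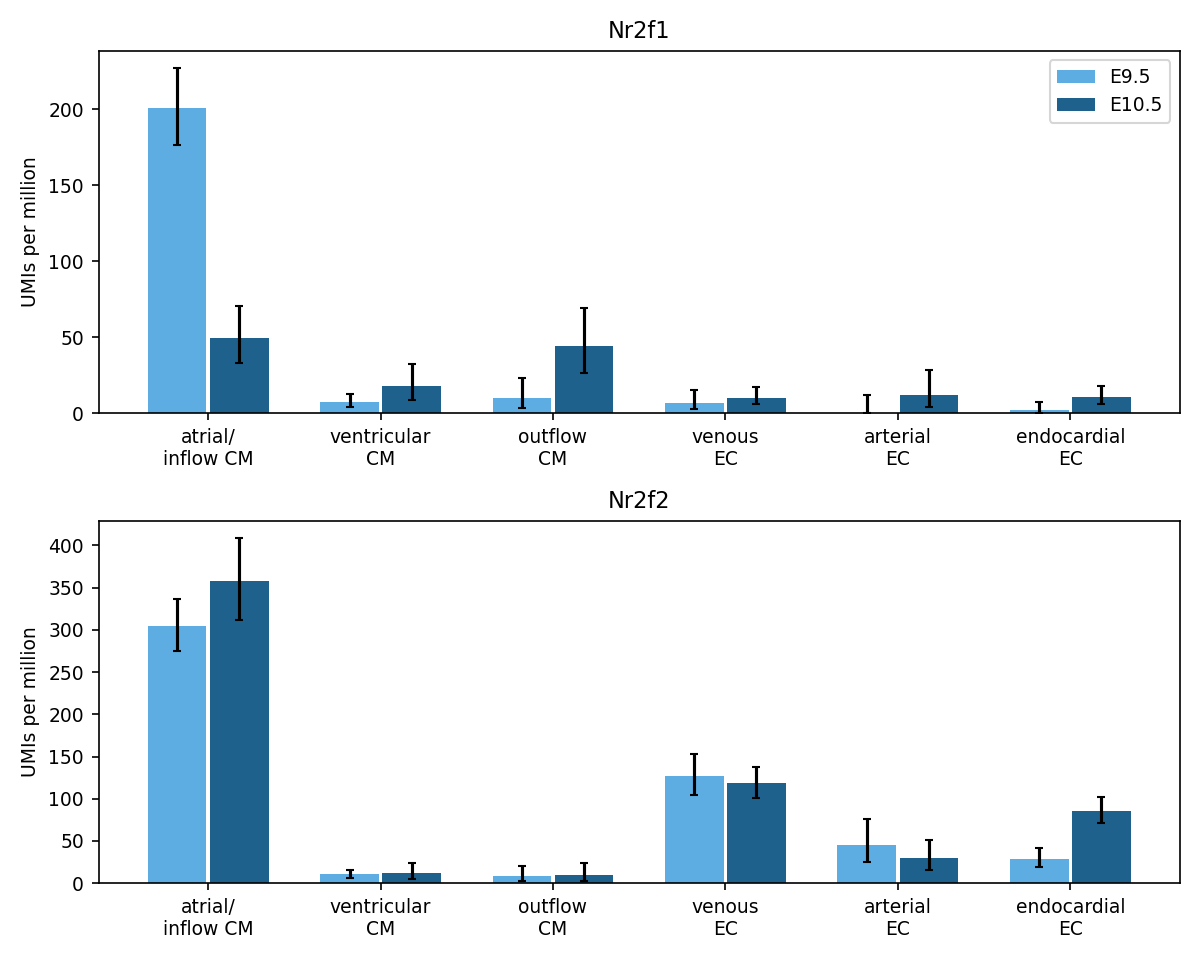
CPM of Nr2f1 (top) and Nr2f2 (bottom) in 3 cardiomyocyte (CM) and 3 endothelial (EC) groups at E9.5 and E10.5, 1 library per stage; error bars are exact Poisson intervals. Nr2f2 bars are high in atrial cells at both stages (305 and 358 CPM) and next in venous cells, while the Nr2f1 atrial bar is at 200 CPM and then 49.3 CPM.

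Co-detection in single cells was compared after thinning every cell to 5000 UMIs, which left out 23 cells of the E9.5 library and none of the others. The share of cells with at least 1 Nr2f1 UMI was 3.72%, 10.3%, 29.1% and 30.6% from E8.0 to E10.5, and that of Nr2f2 was 22.8%, 33.0%, 44.2% and 33.7%. Without thinning the shares were 9.85%, 32.5%, 51.6% and 48.8% for Nr2f1 and 48.4%, 75.1%, 70.6% and 57.2% for Nr2f2. Blood-gated cells, taken as the background, showed Nr2f1 in 0.67%, 0.32% and 0.97% and Nr2f2 in 0.67%, 2.87% and 2.44% at E8.0, E8.25 and E10.5, at unthinned median depths of 34718, 52306 and 28088 UMIs against 21321, 35216 and 15205 in all cells. The shares in endothelial cells, 2.44%, 3.33%, 2.97% and 6.33% for Nr2f1, were the lowest of the 4 compartments apart from cardiomyocytes at E8.0 (0.96%, close to the blood share and read as background).

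Both transcripts were seen in 1.55% (exact Clopper-Pearson interval 1.27 to 1.86), 4.37% (3.65 to 5.18), 17.6% (16.4 to 18.9) and 13.8% (13.1 to 14.6) of all cells. The product of the separate shares, which is the share unrelated detection would give, was 0.85%, 3.41%, 12.9% and 10.3%. The shares of cells with both were above the product and its value lay outside the interval in all 4 libraries. A cell with Nr2f1 carried Nr2f2 in 41.5%, 42.3%, 60.6% and 45.3% of cases, against 22.1%, 32.0%, 37.5% and 28.7% of cells without Nr2f1. Pooling compartments of unequal level raises such an excess by itself, so the compartments were taken one by one.

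Within the pSHF gate the product lay outside the interval at E8.0 only. There 4.53% of cells had both (3.12 to 6.34) against a product of 2.58%. At E9.5 and E10.5, 22.7% (19.1 to 26.7) and 23.9% (19.1 to 29.2) had both, against products of 23.1% and 24.3%. Of the 4 compartments, pSHF had the highest share with both in each library except E9.5, where mesenchyme had 22.9%. In cardiomyocytes both were seen in 0 of 313 cells at E8.0, which allows up to 0.958% of cells with both UMIs at this depth and sets no limit on expressing cells, and in 9.38%, 16.7% and 9.09% later. The E9.5 cardiomyocytes were above their product (13.1 to 20.7 against 8.46%), and their atrial cells taken alone were at 45.6% against 46.1%. The part of unequal cell groups in the cardiomyocyte value was not tested. In mesenchyme both were seen in 1.05%, 4.63%, 22.9% and 21.4%, above the product at E9.5 (19.5 to 26.7 against 17.3%) and E10.5 (19.6 to 23.1 against 18.5%). The mesenchyme gate was not split into groups, and the part of unequal groups within it was not tested either. In endothelial cells both were seen in 0.61% to 3.17% and the product lay inside every interval.

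**Figure D5:**
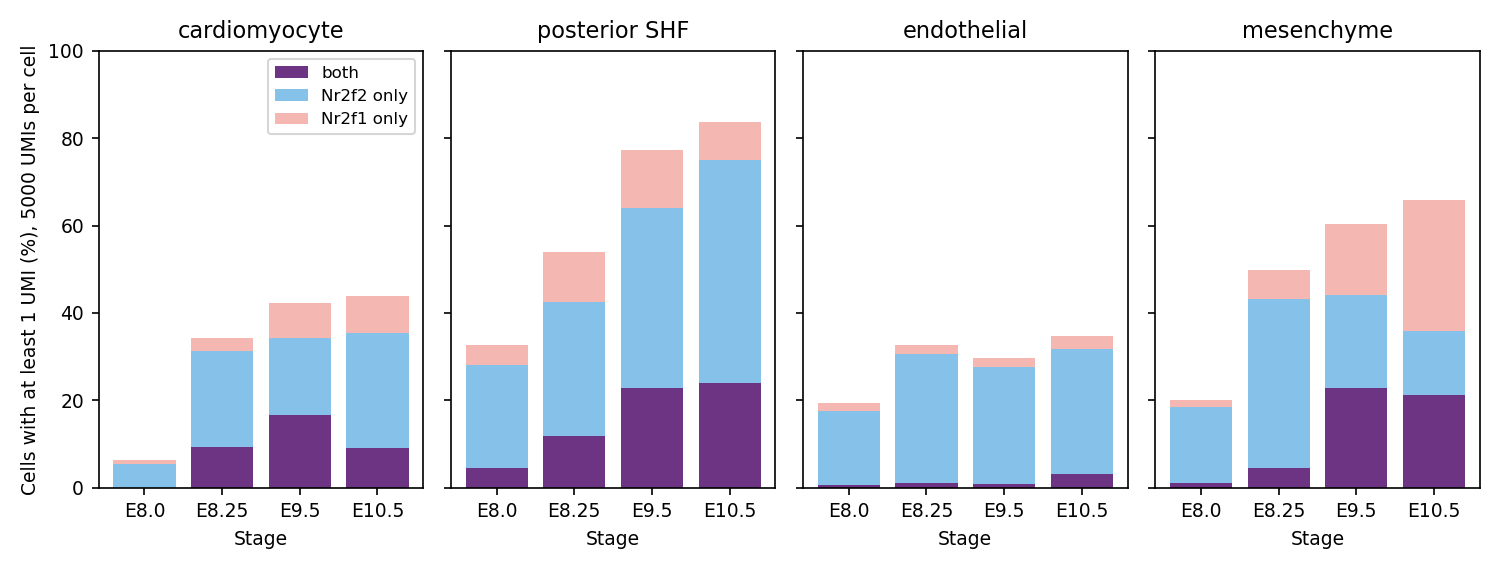
Share of cells (%, vertical axis) with at least 1 UMI of both genes, of Nr2f2 only or of Nr2f1 only, after thinning to 5000 UMIs per cell, by compartment and stage, 1 library per stage. The both segment reaches 23.9% in the pSHF gate and 22.9% in mesenchyme but at most 3.17% in endothelial cells, and the Nr2f1-only segment of mesenchyme is largest at E10.5.

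Genes with a pattern like that of Nr2f1 or Nr2f2 were ranked by Pearson correlation of log2(CPM + 1) over 29 sums of compartments and libraries, among 9148 genes, the gating markers left out. Sums of the same library share its embryos and depth, so the values are a description. Nr2f1 was closest to A830082K12Rik (r = 0.95), its overlapping neighbour on the other strand, which ran from 0 to 18.1 CPM. Next came Crabp2 (r = 0.92), a binding protein that hands retinoic acid to its receptors, Mapk8ip1 (0.90), a scaffold of JNK signalling, Flywch2 (0.89) and Proser3 (0.84). Nr2f2 was closest to Ptprs (0.92), a receptor-type tyrosine phosphatase, Mpnd (0.91), Tia1 (0.90), an RNA-binding protein of stress granules, Gm1673 (0.90) and Tram1l1 (0.89). The correlation of Nr2f1 with Nr2f2 themselves was 0.74, which ranked 50th for Nr2f1 and 731st for Nr2f2. None of the 5 genes closest to one was among the 5 closest to the other.

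A list of 32 genes around the COUP-TFs (related receptors, retinoic acid metabolism and binding, corepressors and cofactors, and genes described as acting downstream) was counted in the same fits. The list was chosen with earlier results of these data known, so its shares here and below are a description only. Between pSHF and cardiomyocytes 14 of 32 were higher and 4 lower in pSHF, 56.2% of the list against 44.5% of all genes, with a median of 0.47 against 0.01 over all genes. Aldh1a2, the retinoic acid synthase, was higher in pSHF by 4.70 ± 0.52 and Rdh10, which makes its substrate, by 2.85 ± 0.37, both past the threshold by edgeR. Cyp26b1, which breaks retinoic acid down, and the receptor gene Rarg were also higher (2.91 ± 1.09 and 2.74 ± 0.49). Prox1 (-3.66 ± 0.36), a regulator of lymphatic and heart muscle development, Angpt1 (-2.99 ± 0.43), a ligand of the endothelial receptor Tie2, Rxrg (-2.90 ± 0.49) and the Gata cofactor Zfpm1 (-0.98 ± 0.28) were lower in pSHF.

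Against mesenchyme, endothelial cells had 6 list genes higher and 15 lower, 65.6% of the list against 38.5% of all genes, with a median of -0.55 against -0.02. Bcl11b, which encodes a COUP-TF interacting protein, was at 0 in 3 of 4 endothelial libraries and at most at 0.57 CPM, against 0.20 to 11.8 CPM in mesenchyme, and was among the lower genes. Gli1 (-3.49 ± 0.51), a Hedgehog target, Crabp2 (-3.29 ± 0.45) and Stra6 (-3.21 ± 0.40), a retinol transporter, were also lower. Notch1 (2.94 ± 0.30), a receptor of arterial identity, Cyp26b1 (2.82 ± 0.60), Prox1 (2.76 ± 0.34) and Zfpm1 (1.59 ± 0.26) were higher. Against pSHF, endothelial cells had 6 higher and 13 lower (59.4% of the list against 43.4% of all genes), with Gli1 (-4.67 ± 0.50), Aldh1a2 (-3.76 ± 0.44) and Stra6 (-3.36 ± 0.40) among the lower ones.

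Mesenchyme had 12 list genes higher and 6 lower than cardiomyocytes (56.2% of the list against 42.0% of all genes), led by Cyp26a1 (4.33 ± 1.00) and Rarg (3.77 ± 0.47). Endothelial cells had 6 higher and 8 lower than cardiomyocytes (43.8% of the list against 47.6% of all genes), led by Cyp26b1 (4.96 ± 0.97, from 0 to 1.08 CPM in cardiomyocytes) and Angpt1 (-5.12 ± 0.53), and no list gene passed between mesenchyme and pSHF. In the interaction of mesenchyme with pSHF, where Nr2f1 passed, 7 of 32 list genes were relatively higher late and none lower (21.9% of the list against 1.46% of all genes), among them Crabp1 (4.25 ± 0.34), Cyp26a1 (3.54 ± 0.47), Angpt1 (2.49 ± 0.49) and Rdh10 (1.70 ± 0.28). In the endothelial minus mesenchyme interaction 1 list gene was relatively higher late and 3 lower (12.5% of the list against 3.49% of all genes). These were Notch1 at 1.21 and Crabp1, Crabp2 and Cyp26a1 at -3.97, -2.43 and -4.60 on the log2 scale. Nr2f2 passed at -1.87 in 2 interactions. There, mesenchyme minus cardiomyocytes had 5 list genes relatively higher late and none lower (15.6% against 5.99% of all genes). Endothelial cells minus cardiomyocytes had 1 lower and none higher (3.1% against 4.63%). Where neither gene passed, pSHF minus cardiomyocytes had 1 higher and 2 lower (9.38% against 4.82%). Endothelial cells minus pSHF had 4 higher and 1 lower (15.6% against 4.97%).

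Among the late groups 20 of the 32 list genes had enough counts to be tested. Atrial against ventricular cells had 5 higher and none lower, 25.0% of those tested against 9.42% of all genes, among them Crabp2 (2.33 ± 0.45), Angpt1 (1.86 ± 0.29) and Zfpm1 (1.65 ± 0.40). Foxc1 was also called higher, and had no UMI in the ventricular cells of either library against 4.04 and 9.86 CPM in atrial cells. Outflow against ventricular cells had 6 higher and none lower (10.8% of all genes passed), among them Foxc1, Crabp1 and Zfpm1. Neither COUP-TF passed there, with -0.60 ± 0.69 for Nr2f2 and 1.07 ± 0.88 for Nr2f1. Of the 20 tested, atrial against outflow cells had 1 higher and 1 lower (10.0% against 2.96% of all genes). Venous cells had 1 higher and none lower than arterial cells (5.0% against 1.23%). Against endocardial cells, venous cells had 1 higher and 1 lower (10.0% against 8.90%). No list gene passed between arterial and endocardial cells, where 2.99% of all genes did. Nrp1, a VEGF coreceptor gene that Nr2f2 is known to repress in veins, was named after its value was seen and stood at -1.08 ± 0.35 in venous minus arterial cells without passing (edgeR, adjusted p = 0.188).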

How the data were processed

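Single-cell UMI counts of 27998 genes were used as the authors deposited them, as raw count matrices of cell barcodes that per the labels came from Cell Ranger 3.1.0 on mm10, after sorting and 10x 3′ capture (v2 kit). The annotation version and the strand setting are not given in the sources used here. Cells with under 1000 genes or over 10% mitochondrial UMIs were removed (2 to 28 per library), then the highest Scrublet scores (scanpy 1.11.5) at 0.8% per 1000 cells (70 to 517 cells), since Scrublet's own threshold marked only 1 to 120. Gates required 5 of 8 cardiomyocyte markers with 20 marker UMIs per 10000, 4 of 6 pSHF, 5 of 9 endothelial and 6 of 9 mesenchyme markers, and their limits were set from marker distributions alone, after the counts were seen. Cells were not clustered.

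Counts were summed per library and gate with at least 20 cells. Sums were compared by edgeR 4.0.16 (quasi-likelihood test, TMM, filterByExpr, library as block, Benjamini-Hochberg adjustment over all genes, threshold 0.05) in R 4.3.3, with DESeq2 1.42.0 as an alternative, and the fits were tested on simulated data. The compartments compared were gated from the same libraries, which is the source of the pairing. Ratios were compared by an exact sign-flip permutation test. Co-detection was counted after thinning each cell to 5000 UMIs without replacement. Alternatives were other scalings, filters, gates, doublet handling, thinning depths and leaving out each library. Library sums held 70599266 to 151615964 UMIs after filtering.

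Named beside the pair were the up to 4 called genes per direction with the largest change in a list of 32, and the 5 genes of highest correlation among those with at least 10 CPM in at least 3 sums. The genes and lists were chosen with earlier results of these data known. Positions and sequences came from RefSeq on GRCm38.p6; the noncoding neighbour of Nr2f2 was not analysed here. Some genes of the lists and gates are counted but not reported here by name.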

Additional observations from a re-analysis of the deposited data

Results flagged for a closer look

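In 4 cases, differences between compartments were themselves different in the late and the early libraries by an interaction test in edgeR. Nr2f2 in mesenchyme minus cardiomyocytes gave -1.87 (log2, late minus early), from 2.19 and 0.86 at E8.0 and E8.25 to 0.06 and -0.49 at E9.5 and E10.5. Nr2f2 in endothelial cells minus cardiomyocytes gave -1.87, from 1.95 and 0.09 to -0.77 and -0.69. Nr2f1 in mesenchyme minus pSHF gave 2.36, from -2.23 and -1.22 to 0.27 and 1.16. Nr2f1 in endothelial cells minus mesenchyme gave -3.10, from -0.16 and -1.69 to -4.58 and -4.15. Early and late libraries differ in age and in the region dissected, and these cannot be told apart. The E8.25 cardiomyocyte sum came from 32 cells, and its part in these values was not tested beyond leaving that library out. The late cardiomyocyte sums mix atrial, ventricular and outflow cells of unequal Nr2f2 level with cells of no such group. The part of this mix was not tested.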

How the results depend on the processing

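Of the compartment, interaction and late-subset differences, most kept their direction and their side of the threshold under most alternatives. Calls named as gained or lost passed or missed adjusted p of 0.05, and the cause was not tested. With DESeq2, the compartment comparisons lost Nr2f1 endothelial cells minus cardiomyocytes (-1.58, adjusted p = 0.0508). The interactions lost Nr2f1 mesenchyme minus pSHF (2.46, adjusted p = 0.222), and gave the other sign for Nr2f2 endothelial cells minus mesenchyme (-0.012). The late subsets lost Nr2f2 venous minus endocardial (1.20, adjusted p = 0.118). Without TMM, the interactions gave the other sign for Nr2f2 endothelial cells minus mesenchyme (-0.010). Without the low-count filter, the interactions gained Nr2f1 pSHF minus cardiomyocytes (-1.78, adjusted p = 0.0101), Nr2f1 endothelial cells minus cardiomyocytes (-2.54, adjusted p = 0.00185), Nr2f2 mesenchyme minus pSHF (-1.13, adjusted p = 0.0053) and Nr2f2 endothelial cells minus pSHF (-1.15, adjusted p = 0.00395), and gave the other sign for Nr2f2 endothelial cells minus mesenchyme (-0.021). The late subsets gained Nr2f1 atrial minus outflow (2.39, adjusted p = 1.37e-09). Under stricter gates, the compartment comparisons lost Nr2f1 endothelial cells minus cardiomyocytes (-1.50, adjusted p = 0.0677), and gained Nr2f1 pSHF minus cardiomyocytes (1.45, adjusted p = 0.0477). The interactions lost Nr2f1 mesenchyme minus pSHF (1.99, adjusted p = 0.0504), and gained Nr2f2 pSHF minus cardiomyocytes (-1.76, adjusted p = 0.0462) and Nr2f1 endothelial cells minus cardiomyocytes (-3.18, adjusted p = 0.0223), and gave the other sign for Nr2f1 mesenchyme minus cardiomyocytes (-0.15) and Nr2f2 endothelial cells minus mesenchyme (-0.19). The late subsets lost Nr2f2 venous minus endocardial (1.07, adjusted p = 0.0737). With cells of several gates assigned to 1, the interactions lost Nr2f1 mesenchyme minus pSHF (2.09, adjusted p = 0.111), and gave the other sign for Nr2f2 endothelial cells minus mesenchyme (-0.18). Without doublet removal, the compartment comparisons lost Nr2f1 endothelial cells minus cardiomyocytes (-1.56, adjusted p = 0.0867). The interactions lost Nr2f1 mesenchyme minus pSHF (2.31, adjusted p = 0.0503), and gave the other sign for Nr2f2 endothelial cells minus mesenchyme (-0.061). Without the library as replicate block, the compartment comparisons lost Nr2f2 pSHF minus cardiomyocytes (0.98, adjusted p = 0.225), Nr2f1 endothelial cells minus cardiomyocytes (-2.42, adjusted p = 0.0861) and Nr2f2 endothelial cells minus pSHF (-1.26, adjusted p = 0.121), and gave the other sign for Nr2f2 endothelial cells minus cardiomyocytes (-0.28) and Nr2f1 mesenchyme minus pSHF (0.34). The interactions lost Nr2f2 mesenchyme minus cardiomyocytes (-1.68, adjusted p = 0.57), Nr2f2 endothelial cells minus cardiomyocytes (-1.59, adjusted p = 0.594), Nr2f1 mesenchyme minus pSHF (2.11, adjusted p = 1) and Nr2f1 endothelial cells minus mesenchyme (-2.77, adjusted p = 0.709). The late subsets lost Nr2f2 venous minus arterial (1.79, adjusted p = 0.205) and Nr2f2 venous minus endocardial (1.10, adjusted p = 0.15). Under stricter gates the outflow group was too small for its comparisons to be fitted. Leaving out 1 library at a time gave, in the compartment comparisons, Nr2f2 pSHF minus cardiomyocytes from 0.87 to 1.27, Nr2f2 endothelial cells minus cardiomyocytes from -0.51 to 0.34, Nr2f1 endothelial cells minus cardiomyocytes from -2.54 to -1.05, Nr2f1 mesenchyme minus pSHF from -0.90 to 0.19 and Nr2f2 endothelial cells minus pSHF from -1.38 to -0.85. Leaving out 1 library at a time gave, in the late minus early interactions, Nr2f2 pSHF minus cardiomyocytes from -1.63 to 0.30, Nr2f2 mesenchyme minus cardiomyocytes from -2.44 to -1.18, Nr2f1 mesenchyme minus cardiomyocytes from -0.10 to 1.27, Nr2f2 endothelial cells minus cardiomyocytes from -2.73 to -0.86, Nr2f1 endothelial cells minus cardiomyocytes from -4.17 to -1.32, Nr2f2 mesenchyme minus pSHF from -1.48 to -0.81, Nr2f1 mesenchyme minus pSHF from 1.87 to 3.02, Nr2f2 endothelial cells minus mesenchyme from -0.34 to 0.35, Nr2f1 endothelial cells minus mesenchyme from -4.07 to -2.45, Nr2f1 pSHF minus cardiomyocytes from -3.11 to -0.80 and Nr2f1 endothelial cells minus pSHF from -1.67 to -0.23, the last 2 without a call in any of these fits. Leaving out 1 library at a time gave, in the late subsets (each late library alone, values with no test), Nr2f1 atrial minus ventricular from 1.40 to 4.68, Nr2f1 atrial minus outflow from 0.13 to 4.18, Nr2f2 venous minus endocardial from 0.47 to 2.13 and Nr2f2 arterial minus endocardial from -1.49 to 0.69. Leaving out 1 library at a time gave, in the ratio, pSHF minus cardiomyocytes from -0.45 to 0.082, mesenchyme minus cardiomyocytes from -0.76 to 0.34 and mesenchyme minus pSHF from -0.85 to 0.64. Stage levels moved beyond counting error with TMM library sizes for Nr2f1 at E9.5 (83.1 CPM) and E10.5 (97.2) and for Nr2f2 at E8.25 (87.5), E9.5 (145) and E10.5 (93.9). Without blood-gated cells they moved for Nr2f1 at E8.25 (33.4) and E10.5 (120) and for Nr2f2 at E8.0 (56.5), E8.25 (99.2) and E10.5 (116), and over all deposited cells for Nr2f1 at E10.5 (96.8). The share of Nr2f1 cells with Nr2f2, from E8.0 to E10.5, was 32.5%, 31%, 41.2%, 28.7% at 2500 UMIs per cell, 57.1%, 65.6%, 76.1%, 60.7% at 10000 and 76%, 89.4%, 87.4%, 71.5% without thinning, so its size depends on depth. Counts of genes called also moved by over 1.5 times. Without the library block pSHF minus cardiomyocytes went from 5456 to 2947 genes, its interaction from 632 to 15, and atrial minus ventricular from 801 to 213, which DESeq2 put at 312. Without E8.0 the interactions of pSHF, mesenchyme and endothelial cells with cardiomyocytes went from 632, 786 and 607 genes to 9, 17 and 18, and that of endothelial cells with mesenchyme from 458 to 37. Without E8.25 mesenchyme minus pSHF went from 199 to 36. Endothelial Nr2f1 values rest on 0 to 15 UMIs in the late groups, and outflow Nr2f2 values on 4 in each. The interactions without each library were added after seeing the data, and the lone library left in an arm is then assumed to vary like the others. By edgeR, 2 of them gained a call that the text above does not name, Nr2f1 endothelial cells minus cardiomyocytes without E8.25 (-4.17, adjusted p = 0.0364) and Nr2f2 mesenchyme minus pSHF without E8.0 (-1.48, adjusted p = 0.0486).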
